A study of Homo sapiens with 2 samples.

Results

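Antisense RNAs are transcripts made from the DNA strand opposite to a protein-coding gene. Of 58735 genes in the deposited table, 403 were expressed antisense RNAs in the human ovarian cancer line A2780. They are the genes with the biotype antisense and a mean over both libraries of at least 1 FPKM, a unit that divides a gene's fragments by its length in kilobases and by a size for the library. The table holds 5583 antisense genes in all, of which 2495 had at least 1 fragment. Another 4 antisense genes above 1 FPKM host small nucleolar RNAs and were left out. Partners are the protein-coding genes that overlap a member on the other strand. There was 1 shJAM3 library, from cells with stable knockdown of JAM3, and 1 shControl library, which the labels call WT and the design text an empty-vector control. The titles say sh and the design text siRNA. The labels name neither the construct's sequence nor a clone. Members were chosen by this mean level, so their levels are a description. The ratio between the libraries is not in the rule, but a low gene can reach this mean through the library where it is high. Just inside the limit lay AL031717.1 with a mean of 1.0006 FPKM and just outside it AC121761.1 with 0.999.

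Antisense transcription is common at mammalian genes. Many antisense RNAs start at the promoter of the coding gene and run away from it, others start inside it, and others run into its far end. Some are spliced, polyadenylated and stable, and a few have known functions in the regulation of chromatin or of signalling proteins. Many are short-lived and are removed in the nucleus by the RNA exosome, a ribonuclease complex. Where sense and antisense RNA pair, the double strand can be edited, bound or cut by proteins that recognise such RNA.

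The libraries held 16455079 fragments in shJAM3 and 15570262 in shControl, recovered as whole numbers from the FPKM. As each group had 1 library, no difference below has a replicate check and no test of the conditions was possible. Brackets give exact 95% intervals of a ratio for counting error only. JAM3, the cell adhesion gene targeted, had 14 fragments in shJAM3 and 18 in shControl, a ratio of 0.716 (0.330 to 1.52). JAM3 was thus at 0.154 FPKM in shJAM3 and 0.215 in shControl, and these counts are too few to check the knockdown. Of 13 marker genes 12 had a fragment, among them the epithelial keratins, with KRT8 at 153 FPKM in shJAM3 and 139 in shControl. Others on the list were low, with EPCAM at 0.690 FPKM in shJAM3 and 0.904 in shControl. PAX8 had 0.527 and 1.12 FPKM in these libraries and MUC16 had 1.07 and 0.475. VIM had 50.2 and 44.9 FPKM, and COL1A1 had 11.3 and 13.5. Of the blood and endothelial markers, PTPRC had none, CD3E had 2 fragments in shJAM3 and 0 in shControl, PECAM1 had 4 and 5, and CD14 had 24 and 66. The part of CD14-expressing cells in the results was not tested. WT1, which marks serous carcinoma, had 0 fragments in shJAM3 and 1 in shControl.

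How overlapping fragments were counted bears on members that share exon bases with a gene on the other strand. The library protocol as given marks no strand, so fragments of an antisense RNA and of its partner cannot be told apart where their exons overlap. Among antisense genes with a partner of at least 5 FPKM, 155 had all their exon bases inside partner exons, and 0 of these 155 had a fragment in either library. With more than 75% but not all exon bases shared, 25 of 72 (34.7%) had a fragment. With more than 50% and up to 75% shared, 84 of 114 (73.7%) had one. The share was 473 of 582 (81.3%) with some and up to 25% shared, and 351 of 583 (60.2%) with none. Antisense RNA that lies wholly under an expressed partner's exons was thus not represented in this table, and a mean of 1 FPKM was reached by 0 of those 155 genes and by 1 of the 72. Of the 403 members, 231 shared some exon bases with a gene on the other strand, with a median share of 3.31% over all members and a highest share of 82.5%.

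**Figure D1:**
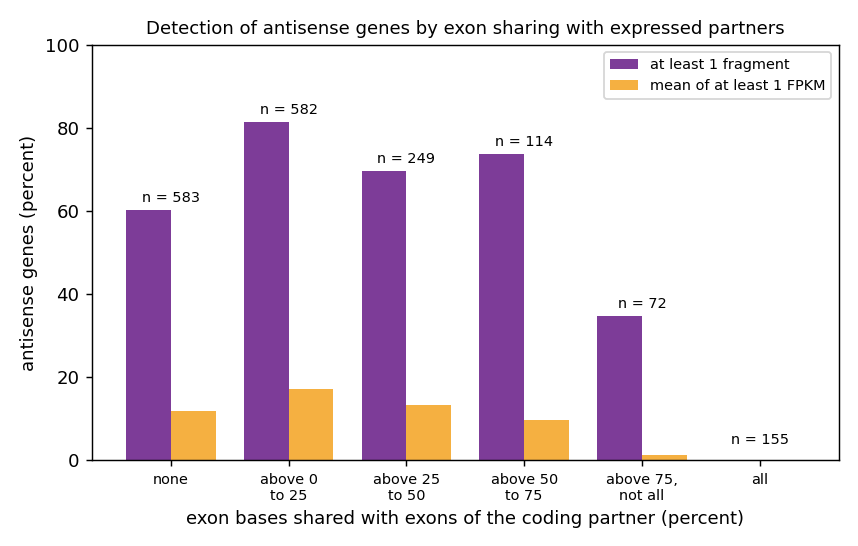
Percent of antisense genes with at least 1 fragment and with a mean of at least 1 FPKM, by the percent of exon bases shared with exons of coding partners of at least 5 FPKM, with the number of genes above each pair of bars. None of the 155 genes whose exon bases were all shared had a fragment.

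Expressed antisense RNAs were low compared with coding genes. Their median level was 1.99 FPKM in shJAM3 (lowest 0, highest 31.5) and 1.89 FPKM in shControl (lowest 0, highest 30.6). The median of their means was 1.94 FPKM, against 7.87 FPKM for protein-coding genes that reached the same limit. All members together took 34772 fragments (0.211%) of the shJAM3 library and 29514 (0.190%) of the shControl library. A member had a median of 73 fragments over both libraries, with a range of 3 to 4029, where a measured protein-coding gene had 1322. Of the 403 members, 264 carry only a clone-based symbol and 100 a symbol with the suffix AS, mostly followed by a number. The median annotated length was 899 bases, and 72 members had a single exon block.

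Among the 12 members with the highest means, 6 were higher and 6 lower in shJAM3, and none by 2-fold. GATA2-AS1, head-to-head with the gene of the transcription factor GATA2, had 24.3 FPKM in shJAM3 and 30.6 in shControl, a ratio of 0.794 (0.727 to 0.868), and GATA2 had 50.2 and 72.6 FPKM in these libraries. ARRDC1-AS1 had 22.6 FPKM in shJAM3 and 28.6 in shControl, a ratio of 0.788 (0.720 to 0.863). FGD5-AS1, the member with the most fragments, had 25.5 FPKM in shJAM3 and 23.4 in shControl, a ratio of 1.09 (1.03 to 1.16). The first pair of these was lower in shJAM3 and FGD5-AS1 was slightly higher, each beyond counting error in these libraries.

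AC069029.1, whose exons lie wholly in introns of IGF1R, the receptor for insulin-like growth factors, had 31.5 FPKM in shJAM3 and 16.6 in shControl. Its ratio was 1.90 (1.41 to 2.58), the furthest from 1 among the 12, on 138 and 67 fragments. IGF1R itself had 37.3 FPKM in shJAM3 and 38.8 in shControl. LINC01137, named ZC3H12A-DT in current annotation, had 22.0 FPKM in shJAM3 and 18.6 in shControl. AC006329.1, now EMSLR, had 21.3 FPKM in shJAM3 and 14.9 in shControl, a ratio of 1.43 (1.17 to 1.75). AC099850.3, now PRR11-AS1, had 23.9 FPKM in shJAM3 and 26.8 in shControl, with an interval of the ratio that includes 1 (0.695 to 1.15).

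**Figure D2:**
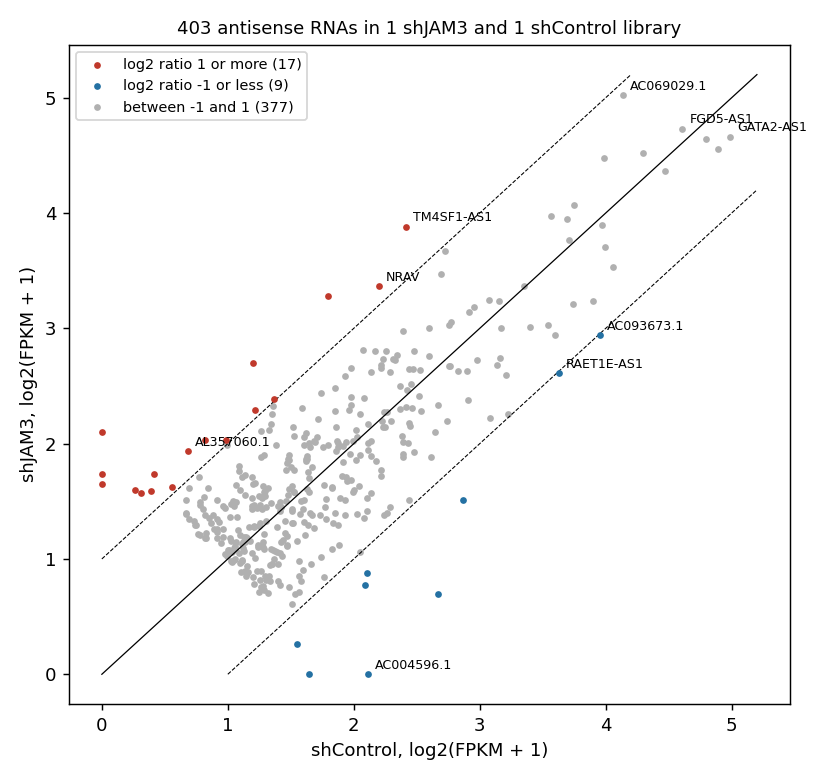
Level of each of the 403 antisense RNAs in the shJAM3 library (vertical axis) and in the shControl library (horizontal axis), as log2(FPKM + 1). Dashed lines mark a log2 ratio of 1 and of -1, which 17 members reached on the higher side and 9 on the lower side.

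Most members differed little between the libraries. The difference between shJAM3 and shControl in log2(FPKM + 1), called the log2 ratio here, was above 0 for 218 members and below 0 for 185, with a median of 0.04, against 0.00 for all 12239 genes of any biotype that reached the same mean. It lay within 0.5 of 0 for 69.7% of members and for 76.5% of all these genes. The rule of size asked for a log2 ratio of 1 or more, or of -1 or less. By it 17 members (4.22%) were higher, against 1.36% of all measured genes, 0.39% of protein-coding genes and 5.73% of long intergenic RNAs. A further 9 members (2.23%) were lower, against 2.14% of all measured genes, 1.41% of protein-coding genes and 3.44% of long intergenic RNAs. Of the 17 higher members, 11 were below 1 FPKM in shControl, and of the 9 lower members 6 were below 1 FPKM in shJAM3. These passed the limit on the mean only through the other library, so the counts and shares are a description and support nothing about antisense RNAs as a class. The added 1 FPKM understates the ratio of members this low. In bulk RNA, fewer cells with an RNA and less of it per cell cannot be told apart.

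Few fragments stood behind most of these calls. Of the 26 members past the rule, 19 had under 50 fragments over both libraries, as did 154 of all 403 members. Of these 154 members 13 were higher (8.44%) and 6 lower (3.9%), against 12% and 11.2% of all 761 genes with as few fragments. Of 116 long intergenic RNAs with as few, 6.03% were higher and 5.17% lower, and of 35 protein-coding genes 0 were either. With 200 fragments or more, 4 of 92 members were higher (4.35%) and 2 lower (2.17%), against 0.522% and 1.40% of 10346 genes and against 6.59% and 2.20% of 91 long intergenic RNAs. Of the 157 members in between, 0 were higher and 1 (0.637%) was lower, against 1.86% and 2.83% of 1132 genes and against 4.93% and 2.82% of 142 long intergenic RNAs. The counting interval of the ratio excluded 1 for 139 of 403 members (34.5%), 80 above and 59 below, against 66.5% of all measured genes, 71.3% of protein-coding genes and 40.1% of long intergenic RNAs. In the group with 200 fragments or more it did so for 59 of 92 members (64.1%), 40 above and 19 below, against 72.2% of 10346 genes and 63.7% of long intergenic RNAs.

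Of the 4 members past the rule on the higher side with 200 fragments or more, 3 are described here, and each of these overlaps a coding gene that was also higher. TM4SF1-AS1 (ENSG00000240541, chromosome 3, 149377778 to 149386583, plus strand) had 13.7 FPKM in shJAM3 and 4.34 in shControl, on 213 and 62 fragments, a ratio of 3.16 (2.37 to 4.27). Its partner TM4SF1, which encodes a membrane protein of the tumour cell surface, had 305 FPKM in shJAM3 and 186 in shControl, a ratio of 1.64 (1.60 to 1.68). The pair is head-to-head, and 9.45% of the antisense exon bases lie in TM4SF1 exons.

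AL357060.1, named WAKMAR2 in current annotation (ENSG00000237499, chromosome 6, 137823673 to 137868233, minus strand), had 2.82 FPKM in shJAM3 and 0.605 in shControl, on 192 and 38 fragments. Its ratio was 4.65 (3.27 to 6.78). TNFAIP3, which encodes the ubiquitin-editing protein A20, a brake on NF-kB signalling, lies head-to-head with it and had 18.9 FPKM in shJAM3 and 11.4 in shControl, a ratio of 1.66 (1.53 to 1.81). The antisense RNA shares 2.32% of its exon bases with TNFAIP3 exons.

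NRAV (ENSG00000248008, chromosome 12, 120490328 to 120495940, minus strand), described as a negative regulator of the antiviral response, had 9.30 FPKM in shJAM3 and 3.60 in shControl. Its ratio was 2.59 (2.06 to 3.27), on 295 and 105 fragments, and it lies wholly in introns of DYNLL1, a dynein light chain gene. DYNLL1 had 48.4 FPKM in shJAM3 and 26.02 in shControl, a ratio of 1.86 (1.73 to 2.00). NRAV was taken up after its values were seen, as the 13th member by ratio on the higher side. In each of these 3 pairs both genes were higher in shJAM3. The antisense RNAs were picked for their size of difference and the partners were not, so their ratios are not compared.

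In RefSeq, TM4SF1-AS1 starts 129 bases and NRAV 167 bases from a start site of the coding gene on the other strand, for DYNLL1 a downstream one, so a single promoter window holds both starts. These windows and that of TNFAIP3 are shown because both genes at each were higher. They run from 250 bases before to 50 after the coding gene's start, 5' to 3' on its strand, from RefSeq (GRCh38.p14): TM4SF1 at chr3:149377600-149377899 on the minus strand, DYNLL1 at chr12:120495863-120496162 on the plus strand and TNFAIP3 at chr6:137867009-137867308 on the plus strand. TM4SF1-AS1 starts at position 122 of the first window and NRAV at position 84 of the second. Both read away from the start site of that window, and NRAV does so through the upstream part of the DYNLL1 gene. Capitals mark the CCAAT box (letters CCAAT), the GC box (letters GGGCGG) and the NF-kB consensus. These and the TATA box (letters TATAAA) were searched on both strands.
TM4SF1: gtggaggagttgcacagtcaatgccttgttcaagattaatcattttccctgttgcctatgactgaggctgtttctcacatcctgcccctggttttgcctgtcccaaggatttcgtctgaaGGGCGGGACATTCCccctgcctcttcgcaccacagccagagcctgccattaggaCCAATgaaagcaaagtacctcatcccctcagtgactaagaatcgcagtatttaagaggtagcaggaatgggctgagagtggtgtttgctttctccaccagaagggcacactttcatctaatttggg
DYNLL1: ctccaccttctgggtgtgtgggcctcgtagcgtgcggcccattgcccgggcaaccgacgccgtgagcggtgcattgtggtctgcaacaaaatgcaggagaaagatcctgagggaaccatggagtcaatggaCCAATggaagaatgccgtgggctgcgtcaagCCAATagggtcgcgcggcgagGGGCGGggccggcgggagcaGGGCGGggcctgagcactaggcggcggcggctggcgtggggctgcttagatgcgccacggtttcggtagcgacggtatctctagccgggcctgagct
TNFAIP3: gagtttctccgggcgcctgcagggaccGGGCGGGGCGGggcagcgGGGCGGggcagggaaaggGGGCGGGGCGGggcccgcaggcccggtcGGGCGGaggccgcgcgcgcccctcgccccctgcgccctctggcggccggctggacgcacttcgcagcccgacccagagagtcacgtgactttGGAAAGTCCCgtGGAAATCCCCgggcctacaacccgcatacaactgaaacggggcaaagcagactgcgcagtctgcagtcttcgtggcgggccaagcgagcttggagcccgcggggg

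The TM4SF1 window holds 1 CCAAT box, 1 GC box and 1 match to the NF-kB consensus, which overlaps the GC box by 2 bases. The DYNLL1 window holds 2 CCAAT boxes and 2 GC boxes. The TNFAIP3 window holds 6 GC boxes, some of which overlap each other by 1 base, and 2 matches to the NF-kB consensus. None of the 3 holds a TATA box. Of 35116 promoter windows of this length, 34.6% hold a CCAAT box, 45.0% a GC box, 11.5% a TATA box and 11.3% the NF-kB consensus. The windows have 4, 28 and 35 CpG dinucleotides in the order shown, against a median of 14 over all windows. A match is a description of the letters, and binding was not measured.

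**Figure D3:**
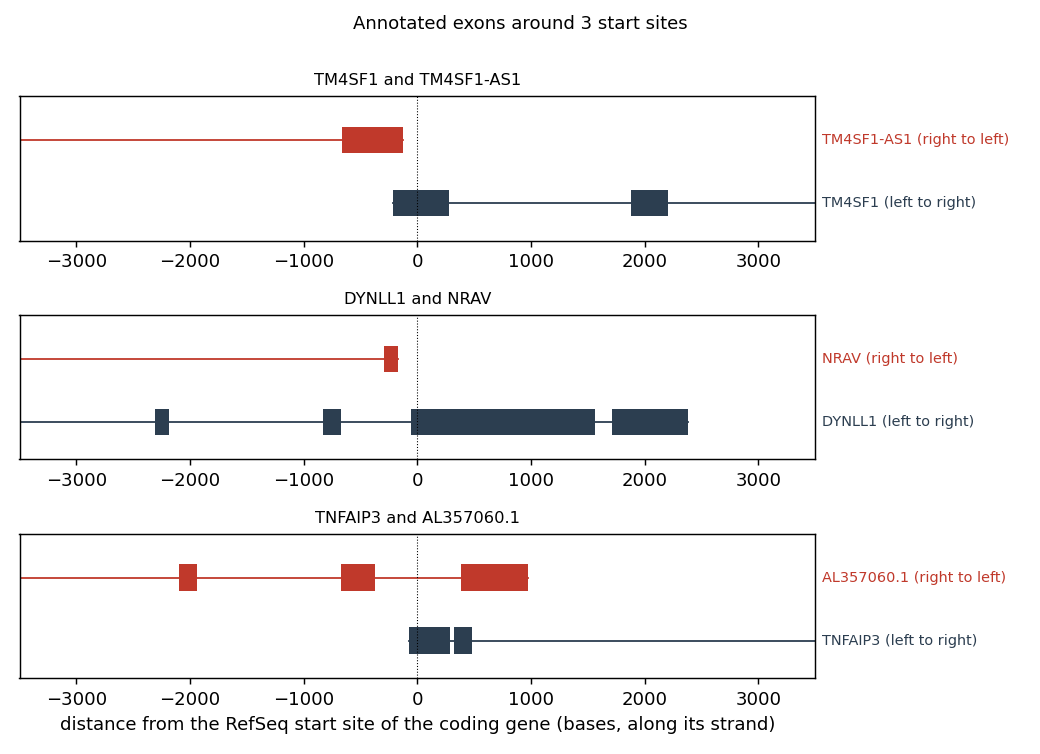
Annotated exons (boxes) of 3 coding genes and their antisense RNAs, plotted by distance in bases from the RefSeq start site of the coding gene along its strand, with genes cut off at the edges. TM4SF1-AS1 and NRAV begin just left of that start and run left, and AL357060.1 begins to its right and runs left across it.

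The 13 members past the rule on the higher side with under 50 fragments rest on 4 to 47 fragments over both libraries. AL133351.1, now NQO2-AS1, had 21 fragments in shJAM3 and 0 in shControl, and AC010307.2, which overlaps FSTL4, had 29 and 0. Set against a limit of 3 fragments in the library where none was found, they were at least 6.45-fold and at least 8.90-fold higher in shJAM3. AL354892.2 had 5.50 FPKM in shJAM3 and 1.29 in shControl, on 37 and 8 fragments. AL354836.1 had 3.08 FPKM in shJAM3 and 0.765 in shControl, and AC113607.1 had 2.34 and 0.332 FPKM in these libraries. AP003392.6, AC093732.2 and AL138831.1 had 11, 9 and 7 fragments in shJAM3 and 1 each in shControl. AC062037.2, a gene of 73 bases, had 4 fragments in shJAM3 and 0 in shControl. The counting intervals of AC062037.2 and AL138831.1 include 1, and those of AP003392.6 and AC093732.2 reach down to 1.47 and 1.15.

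On the lower side, RAET1E-AS1 and AC093673.1 were the best sampled. RAET1E-AS1 (chromosome 6, 149863494 to 149919507, plus strand) had 5.10 FPKM in shJAM3 and 11.4 in shControl, on 103 and 211 fragments, a ratio of 0.450 (0.352 to 0.572). It spans RAET1E, which encodes a ligand of the immune receptor NKG2D and had 2.32 FPKM in shJAM3 and 1.60 in shControl. Of its exon bases 55.5% lie in exons of partners, most of them in LRP11, a receptor-related gene with 0.859 FPKM in shJAM3 and 1.19 in shControl. AC093673.1, now FAM131B-AS2, had 6.66 FPKM in shJAM3 and 14.5 in shControl, a ratio of 0.461 (0.342 to 0.615). With each library scaled by its own total, both fell inside the rule, at log2 ratios of -0.98 and -0.98. AL606489.1, now PPP1R15B-AS1, had 1.85 FPKM in shJAM3 and 6.30 in shControl, on 15 and 47 fragments, while PPP1R15B, a phosphatase subunit of the stress response, had 83.9 and 94.7 FPKM in these libraries. AC004596.1, now ATXN7L3-AS1, had 0 fragments in shJAM3 and 27 in shControl and was at least 9.77-fold lower in shJAM3, and its head-to-head partner ATXN7L3, a subunit of a histone deubiquitinating module, had 16.3 and 25.7 FPKM in these libraries. AC116914.2 had 3 fragments in shJAM3 and 24 in shControl, AC078993.1 had 4 and 36, AC073842.2 had 8 and 29, and AP000697.1 had 4 and 17. AP001458.1, with 0 fragments in shJAM3 and 3 in shControl, was at the limit of detection.

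**Figure D4:**
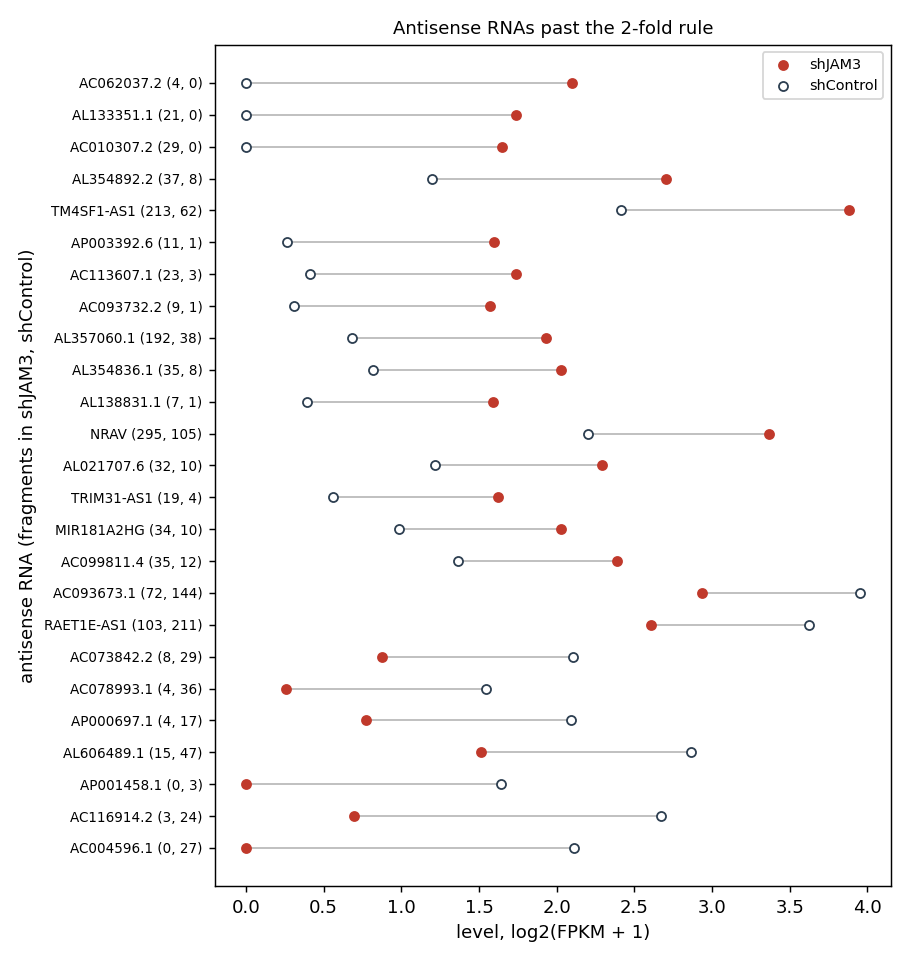
Level, as log2(FPKM + 1), of 25 of the 26 antisense RNAs past the rule of size in shJAM3 (filled) and shControl (open), ordered by log2 ratio, with the fragments in shJAM3 and shControl after each name. Only 7 of the 26 had 50 fragments or more over both libraries.

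Members with less GC in their transcripts tended to have higher log2 ratios. Across the 403 members r was -0.23, against -0.42 across all measured genes, and genes are not independent replicates. The 101 members with the lowest GC content had a median log2 ratio of 0.13 and the 101 with the highest a median of -0.11. After centring on GC content, 20 of the 26 members past the rule stayed past it, and AC093673.1, RAET1E-AS1, AC099811.4, MIR181A2HG, AP000697.1 and TRIM31-AS1 did not. Other members entered the rule, so that 17 members were then higher and 10 lower by it. TM4SF1-AS1, AL357060.1 and NRAV stayed past the rule, at log2 values of 1.35, 1.10 and 1.14. RAET1E-AS1, with a GC content of 69.6%, moved to -0.52 and AC093673.1 to -0.97. Among the highest members, GATA2-AS1 moved from -0.32 to 0.04, ARRDC1-AS1 from -0.33 to -0.03 and FGD5-AS1 from 0.12 to 0.003. HOXA11-AS moved from -0.26 to -0.05, and the partner GATA2 from -0.52 to -0.17. Among the genes picked by the naming rule given below, log2 ratios moved beyond their counting error for 29. A further 4 fell inside the rule, and 53 were classed as the same. That set leaves out MIR181A2HG and TRIM31-AS1.

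Partners were found for 320 of the 403 members, 378 pairs with 366 distinct coding genes, and 294 of these genes had a mean of at least 1 FPKM. Measured partners had a median mean level of 11.7 FPKM. The antisense RNA was at the lower level in 270 of 303 measured pairs, with a median level of 0.208 of its partner's. Of the 33 pairs in which it was the higher, ARRDC1-AS1 and ARRDC1 are an example. The partner, an arrestin-domain gene, had 15.5 FPKM in shJAM3 and 21.1 in shControl.

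Partners past the rule were few. Of 294 distinct partners 0 were higher, against 0.39% of protein-coding genes, and 5 (1.7%) were lower, against 1.41%. The median log2 ratio of partners was -0.16, against -0.01 for all measured protein-coding genes. The 5, and ELF3-AS1, were named after their values were seen. ELF3, an epithelial transcription factor of the ETS family, had 7.98 FPKM in shJAM3 and 17.8 in shControl, and its head-to-head antisense RNA ELF3-AS1 had 1.97 and 3.39 FPKM in these libraries, a ratio of 0.581 (0.480 to 0.702). MAFG, a small Maf transcription factor, had 18.6 FPKM in shJAM3 and 43.1 in shControl. CACNA1H, a T-type calcium channel gene that holds 2 members in its introns, had 9.43 FPKM in shJAM3 and 21.6 in shControl. ZSWIM4, tail-to-tail with AC020916.1, had 4.26 FPKM in shJAM3 and 9.93 in shControl, and ZNF775 had 1.71 and 4.56. All 5 were within the rule after centring on GC content.

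Antisense RNA and partner had log2 ratios of the same sign in 182 of 303 measured pairs (60.1%), with both higher in 68 and both lower in 114. Overlapping pairs of protein-coding genes on opposite strands did so in 61.9% of 1159 cases. Across the 303 pairs r was 0.22 and rho 0.22, against r of 0.25 across the coding pairs. All these pairs share both libraries, local GC content and a library protocol that as given marks no strand. No pair had both genes past the rule. After centring on GC content the same-sign pairs were 162 of 303 and r was 0.16.

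By layout, 115 measured pairs were head-to-head, 115 had the antisense gene inside its partner, 56 were tail-to-tail and 17 had the partner inside the antisense gene. The same-sign share was 58.3% (r = 0.31) for head-to-head pairs, 66.1% (r = 0.17) for antisense genes inside partners, 48.2% (r = 0.26) for tail-to-tail pairs and 70.6% (r = 0.00) for the last layout. With 50 antisense fragments or more, it was 58.4% in 89 head-to-head pairs, 60.7% in 56 inside pairs and 42.5% in 40 tail-to-tail pairs. For antisense genes inside partners the median share of exon bases in partner introns was 100%, where fragments of unspliced partner RNA cannot be told from antisense RNA.

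**Figure D5:**
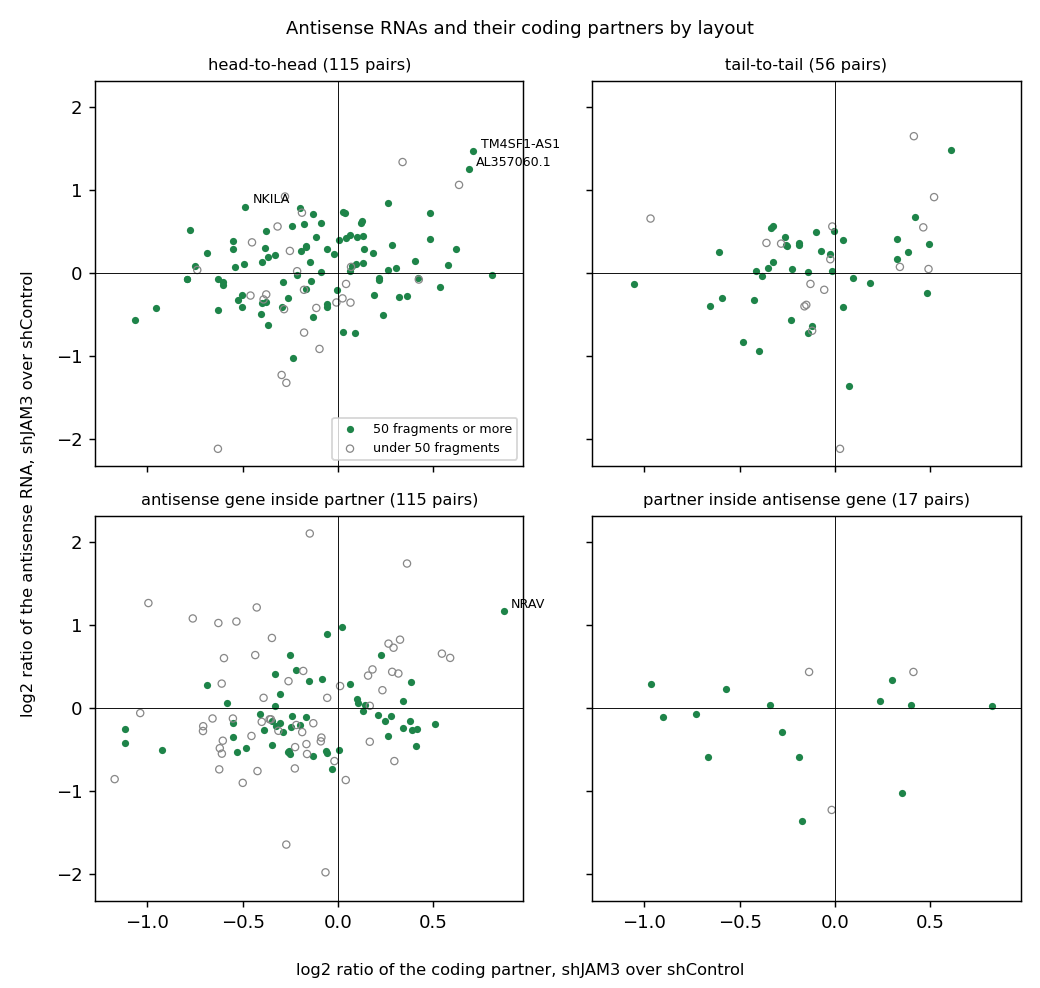
Log2 ratio, shJAM3 over shControl, of the antisense RNA (vertical axis) and of its coding partner (horizontal axis) in 303 pairs, by layout, with antisense RNAs of 50 fragments or more filled. The 3 pairs of TM4SF1-AS1, AL357060.1 and NRAV lie at the upper right, and NKILA lies left of 0.

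Start sites lay close together for many members. For 161 of 403 (40.0%), the annotated 5' end lay within 1000 bases of that of a coding gene on the other strand, against 24.6% of 349 long intergenic RNAs, 18.5% of protein-coding genes and 18.9% of the 5174 antisense genes below 1 FPKM. The antisense biotype is itself given by position against a gene on the other strand, so the contrast with other classes is partly set by annotation. The antisense genes below 1 FPKM include those wholly under partner exons, which had no fragment. The 161 include 39 members without an overlapping partner. Where the coding gene was measured, 85 of 150 such pairs (56.7%) had the same sign, with r = 0.24, against 61.9% of 790 coding pairs laid out alike, with r = 0.29.

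The 5 pairs furthest apart with opposite signs had few antisense fragments. AC093732.2 had 9 fragments in shJAM3 and 1 in shControl, while its partner TTC7A, a scaffold of lipid kinase PI4KA, had 15.6 FPKM in shJAM3 and 32.0 in shControl. AL021707.6 had 3.91 FPKM in shJAM3 and 1.33 in shControl, in an intron of the nuclear envelope gene SUN2, which had 17.3 FPKM in shJAM3 and 29.9 in shControl. AC099811.4 had 4.23 FPKM in shJAM3 and 1.57 in shControl, in introns of STAT5B, a cytokine-activated transcription factor with 55.7 FPKM in shJAM3 and 86.6 in shControl. The remaining pairs are AC062037.2 with ELMOD3 and AC004596.1 with UBTF, whose antisense counts are given above. ELMOD3 had a ratio of 0.861 (0.720 to 1.03) and UBTF a ratio of 1.02 (0.957 to 1.09). Both of these partner intervals include 1.

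Well-known antisense RNAs lay on both sides of their shControl level. Of 52 listed, 48 were in the table and 18 had a mean of at least 1 FPKM, some with another biotype. Of the 18, 8 were higher and 10 lower, with a median log2 ratio of -0.09, against 0.00 for all measured genes. None was past the rule, against 1.36% of all measured genes higher and 2.14% lower by it. The added 1 FPKM understates the ratios of the low ones, and TMPO-AS1, NKILA and HOXB-AS3 were beyond 2-fold without it. TMPO-AS1, antisense to the gene of a nuclear lamina protein, was furthest up, with 3.30 FPKM in shJAM3 and 1.40 in shControl, a ratio of 2.37 (1.79 to 3.15), while TMPO had 22.1 and 18.2 FPKM in these libraries. NKILA, described as an inhibitor of NF-kB activation, had 3.35 FPKM in shJAM3 and 1.503 in shControl, a ratio of 2.23 (1.64 to 3.06). Its head-to-head partner PMEPA1, a gene induced by TGF-beta, was on the other side, with 22.5 FPKM in shJAM3 and 31.8 in shControl. PAXIP1-AS1 had 3.19 FPKM in shJAM3 and 5.48 in shControl, a ratio of 0.582 (0.459 to 0.735). ZEB1-AS1, beside the gene of the EMT factor ZEB1, had 1.86 FPKM in shJAM3 and 2.43 in shControl. OIP5-AS1, with the most fragments of the list, had 16.98 FPKM in shJAM3 and 17.9 in shControl. The files class PAXIP1-AS1 and OIP5-AS1 under other biotypes, so they are not among the 403.

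The genes of the HOX clusters set position along the body axis, and 7 members have a symbol that begins with HOX or HOTAIR. Of these 7 members 6 were lower and 1 higher in shJAM3, where 185 of all 403 members were lower and 218 higher. The counting interval of the ratio lay below 1 for 2 of the 7 and above 1 for 1. None was past the rule, against 1.36% of all measured genes higher and 2.14% lower by it. Members in these clusters under other symbols were not looked for. The 7 were grouped after their values were seen. HOTAIR, described as a scaffold for chromatin modifiers, had 3.02 FPKM in shJAM3 and 3.33 in shControl, a ratio of 0.907 (0.707 to 1.16). HOTAIRM1 had 7.01 FPKM in shJAM3 and 8.01 in shControl, also with an interval that includes 1. HOXA11-AS had 5.60 FPKM in shJAM3 and 6.89 in shControl, a ratio of 0.813 (0.692 to 0.954), and HOXA11 had 10.8 and 15.7 FPKM in these libraries. HOXB-AS3 had a ratio of 0.461 (0.270 to 0.767) on 24 fragments in shJAM3 and 48 in shControl. HOXB-AS4, the one on the higher side, had 6.005 FPKM in shJAM3 and 3.21 in shControl, a ratio of 1.87 (1.22 to 2.93). HOXC-AS1 and HOXC13-AS had counting intervals that include 1.

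Some members hold microRNA genes on their own strand. MIR181A2HG, which hosts MIR181A2 and MIR181B2 on chromosome 9, had 3.08 FPKM in shJAM3 and 0.983 in shControl, on 34 and 10 fragments, a ratio of 3.13 (1.51 to 7.11). It lies in introns of the nuclear receptor gene NR6A1, which had 1.30 FPKM in shJAM3 and 2.32 in shControl. The mature 5p microRNAs of this host, from RefSeq (GRCh38.p14), are shown because they share their seed, bases 2 to 8, in capitals. Mature microRNAs have no poly(A) tail and were not measured, and the table gives the MIR181B2 gene 5 fragments in shJAM3 and 0 in shControl.
hsa-miR-181a-5p: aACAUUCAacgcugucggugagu
hsa-miR-181b-5p: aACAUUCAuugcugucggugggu

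AC020916.1, a single exon block of 19049 bases that holds MIR23A, MIR27A and MIR24-2, had 1.51 FPKM in shJAM3 and 1.75 in shControl, a ratio of 0.865 (0.762 to 0.982). MIR181A2HG and AC020916.1 were chosen after their values were seen.

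Genes that handle such transcripts were measured alongside. Of 30 nuclear exosome and RNA decay symbols listed, CPSF3L is an older name of INTS11, and the remaining 29 were all measured. Of these 29 genes 19 were higher and 10 lower in shJAM3. Their median log2 ratio was 0.14, against 0.00 for all measured genes, and it was 0.11 after centring on GC content. None was past the rule, against 1.36% of all measured genes higher and 2.14% lower by it. EXOSC6, a subunit of the exosome core, had 5.81 FPKM in shJAM3 and 10.9 in shControl, a ratio of 0.531 (0.474 to 0.593). The exosome cofactor MPHOSPH6 had a ratio of 2.01 (1.47 to 2.75) and ZCCHC8, a scaffold of the nuclear exosome targeting complex, a ratio of 1.67 (1.48 to 1.87). UPF1, the helicase of nonsense-mediated decay, had 24.0 FPKM in shJAM3 and 38.8 in shControl. Of 21 genes listed for double-stranded RNA binding and editing, 16 were measured, of which 14 were higher and 2 lower. None was past the rule, against the same shares of all measured genes. Their median log2 ratio was 0.30, against 0.00 for all measured genes, and it was 0.22 after centring on GC content. DHX9, a helicase of structured RNA, had 34.3 FPKM in shJAM3 and 17.6 in shControl, a ratio of 1.95 (1.83 to 2.07). PRKRA, an activator of the kinase PKR, had a ratio of 1.69 (1.45 to 1.97). The 2 lower genes, named for their direction, were ADAR with a ratio of 0.982 (0.940 to 1.02) and ZFR with 0.985 (0.930 to 1.04). Both of these intervals include 1.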

How the data were processed

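RNA was measured by poly(A)-selected sequencing in 1 shJAM3 and 1 shControl library of A2780 cells. The authors deposited FPKM for each gene, beside its position, length and biotype. Tools listed in the submitters' processing notes, without saying what each did, are featureCounts 1.5.0-p3 and HISAT2 2.0.5. They also list fastp, STAR, STAR-Fusion and GATK 4.1.1.0, edgeR 3.22.5 and DESeq2 1.20.0. Settings for overlapping genes, strand and multiple matches are not given in the sources used here.

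All 58735 deposited genes matched GENCODE 29 (GRCh38) in coordinates, strand, symbol and biotype, and their lengths equalled the union of annotated exons, so exon overlaps and layouts were taken from it. Current symbols came from a table of gene names. Multiplying each FPKM by the gene's length and dividing by the smallest step in that library gave whole fragment numbers for 100% of values (tolerance 0.001 fragments). The FPKM imply library sizes of 1.01 (shJAM3) and 0.987 (shControl) times the recovered totals, so they carry an added scaling of unnamed method.

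The main measure was log2(FPKM + 1) in shJAM3 minus that in shControl, with a rule of size of 1. Ratios are of FPKM without the added 1, with exact conditional binomial intervals. They do not cover PCR copies or spread between cultures. Python 3.11.15, scipy 1.17.1 and pandas 2.3.3 were used. Calls were tested on simulated counts. Genes named were the 12 highest members, up to 12 past the rule in each direction, their partners, the 5 most opposed pairs, well-known antisense RNAs and up to 6 RNA-handling genes, with exceptions stated, and a result of that rule is not reported here. Members and lists were chosen with earlier results of these data known. The alternatives were other pseudocounts, scalings, filters, pair definitions and GC centring in 20 bins.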

Additional observations from a re-analysis of the deposited data

How the results depend on the processing

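Own library totals and a trimmed-mean (TMM) factor left the counts of antisense RNAs past the rule within 1.5 times, and they moved the median of all measured genes to 0.0375 and -0.00412. With a pseudocount of 0.1 FPKM, 40 antisense RNAs were higher and 34 lower, and 3 partners higher and 9 lower. At a mean of at least 0.5 FPKM, 28 antisense RNAs were higher and 20 lower, with 9 partners lower. At a mean of at least 2 FPKM the numbers were 7, 5 and 2. At a mean of at least 5 FPKM, 3 of 50 antisense RNAs were higher and 2 lower, 0 partners were lower, the median log2 ratio of antisense RNAs was -0.076, and 53.3% of 30 pairs had the same sign. With at least 50 fragments, 4 antisense RNAs were higher and 3 lower, with 3 partners lower. Among antisense RNAs with no exon base shared with the other strand, 5 of 172 were higher and 4 lower, with 2 partners lower. With GC centring, 0 partners were lower and 53.5% of pairs had the same sign. Among 91 pairs whose counting intervals both excluded 1, 65.9% did. Filters change the number of genes counted by construction, and for the other shifts the cause was not tested. None of the named antisense RNAs past the rule turned its direction under GC centring. The pseudocount cannot change a sign, and the scalings shift ratios too little to turn one past the rule. No paired analysis was possible because each group has 1 library, and leaving one out leaves no comparison. Depth limits the members under 50 fragments most.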

Other observations

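Some members start close to a coding gene on the other strand without overlapping it, so that the pair shares no exon base. These examples were chosen after their values were seen. AL359399.1 starts 825 bases from KIF26A, a gene of a kinesin-like protein, and had 8.44 FPKM in shJAM3 and 13.9 in shControl, a ratio of 0.605 (0.435 to 0.835). KIF26A had 96.1 FPKM in shJAM3 and 233 in shControl, a ratio of 0.413 (0.403 to 0.422), so both were lower in shJAM3. With a GC content of 69.7%, AL359399.1 moved from a log2 ratio of -0.66 to -0.17 after centring on GC content. AL445524.1 starts 97 bases from TSNAX, the gene of the RNA-binding protein translin-associated factor X, and had 11.7 FPKM in shJAM3 and 5.61 in shControl, a ratio of 2.09 (1.62 to 2.72). TSNAX had 3.89 FPKM in shJAM3 and 4.66 in shControl, a ratio of 0.835 (0.728 to 0.957), so this pair lay on opposite sides of 1. NALT1 starts 426 bases from NOTCH1, the gene of a receptor in cell-to-cell signalling, and had 7.16 FPKM in shJAM3 and 5.74 in shControl, with an interval of the ratio that includes 1 (0.951 to 1.64). NOTCH1 had 19.2 FPKM in shJAM3 and 30.8 in shControl, a ratio of 0.622 (0.595 to 0.650).

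Of the 100 members with the suffix AS in their symbol, 83 are named for a coding gene that was measured. Both had log2 ratios of the same sign in 48 of these 83 (57.8%), with r = 0.28. Overlapping pairs of protein-coding genes on opposite strands did so in 61.9% of 1159 cases, with r = 0.25. The antisense RNA had a median level of 0.238 of that of the gene it is named for. The pairs share both libraries and a library protocol that as given marks no strand.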
